A study of Mus musculus with 4 samples.

Results

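The AP-1 and other immediate early factors are a set of 10 genes, Fos, Fosb, Fosl2, Jun, Junb, Jund, Egr1, Atf3, Ier2 and Ier3. They were chosen by gene symbol among the 24706 genes of the expression tables, and their levels in wt and cko libraries were compared. RNA-seq of mouse cells labelled as myeloid cells gave 4 libraries, 2 from wt and 2 from cko animals. The wt animals were PD-1f/f mice according to the results and wild-type mice according to the methods, and the cko animals carried PD-1f/f with LysM-Cre. This Cre is expressed from the Lyz2 (LysM) locus, which is active in myeloid cells, and removes the loxP-flanked part of Pdcd1, the gene of PD-1. The cells were CD11b-positive cells sorted from the liver of newborn pups according to the results, whereas the methods name RNA of liver without a sort and a different day after birth. Whether the 2 libraries of a group came from separate litters is not given in the labels, so that p-values measure the spread between these libraries only.

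AP-1 is a dimer of basic leucine zipper proteins, most often a FOS protein with a JUN protein, which binds the TPA response element or, together with ATF proteins, the cyclic AMP response element. Immediate early genes are transcribed within minutes of a stimulus from factors that are already present in the cell, downstream of the MAP kinase pathways, serum response factor and NF-κB. In myeloid cells they respond to growth factors, cytokines and microbial products, and they are also known to be induced when tissue is dissociated and cells are sorted.

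Abundances were deposited as FPKM, the fragments of a gene scaled to its length and to the reads of the library, so that levels of different genes can be set side by side. Fold changes are differences of log2(FPKM + 1), cko minus wt, with their standard error (SE) and adjusted p from limma (Benjamini-Hochberg over the 10779 genes whose mean over the 4 libraries was 1 FPKM or more). Of the 10 factors, 9 reached this minimum and Jund did not. Libraries held 17691505 to 22212407 reads, recovered from the steps between FPKM values. The targeted gene Pdcd1 was at 28.5 and 34.7 FPKM in wt and at 17.1 and 21.4 FPKM in cko libraries, a difference of −0.69 (SE 0.186, adjusted p = 0.218 in limma). Lyz2, which carries the Cre, differed by −1.79 (SE 0.185, adjusted p = 0.183 in limma). The myeloid markers Itgam (CD11b), at 48.5 to 54.3 FPKM, and Ptprc (CD45), at 58.1 to 75.1 FPKM, were present in all 4 libraries. One library stood apart by sex, since 4 Y-linked genes summed to 43.9 FPKM in wt replicate 2 and to at most 0.0195 FPKM in each of the other 3 libraries.

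The factors spanned a wide range of levels, with Fos, Ier2, Junb and Egr1 abundant in both genotypes, and most had higher mean values in cko, although none passed the adjusted test. Their summed level was 2603 and 2445 FPKM in wt and 3297 and 3801 FPKM in cko libraries, which was 0.529% and 0.535% of all FPKM in wt and 0.799% and 0.941% in cko. The total of all FPKM was itself lower in cko, at 412778 and 403900 against 491983 and 457127 in wt libraries. Part of the higher share comes from this lower total. Both cko libraries lay above both wt libraries for 6 of the 9 tested factors, Fos, Fosl2, Jun, Junb, Ier2 and Ier3, against 33.6% of all tested genes. Fosb was the only factor with both cko libraries below both wt libraries, a pattern seen in 18.0% of all tested genes. For Egr1 and Atf3 the groups overlapped. The median log2 fold change of the 9 tested factors was 0.45, against 0.09 over all tested genes. For 3 of 9 factors, Jun, Junb and Ier3, all higher in cko, the unadjusted p was under 0.05, against 11.4% of all tested genes in that direction. No factor and no other gene reached an adjusted p under 0.05 in limma (0.0% of tested genes), while 1768 genes had an unadjusted p under 0.05 and voom on recovered reads gave 2 genes past the adjusted threshold, neither of them a factor. None of the factors combined a log2 fold change above 1 with an unadjusted p under 0.01, which 1.88% of tested genes did, and none a log2 fold change under −1 with such a p, as 0.408% of tested genes did. A log2 fold change of at least 1 was seen for 2 factors, Atf3 and Ier3, and for 3.96% of tested genes. A positive one was seen for 8 of the 9 factors and for 60.4% of tested genes. With only 2 libraries a group, an exact two-sided permutation test of a single gene cannot go below p = 0.333.

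**Figure D1:**
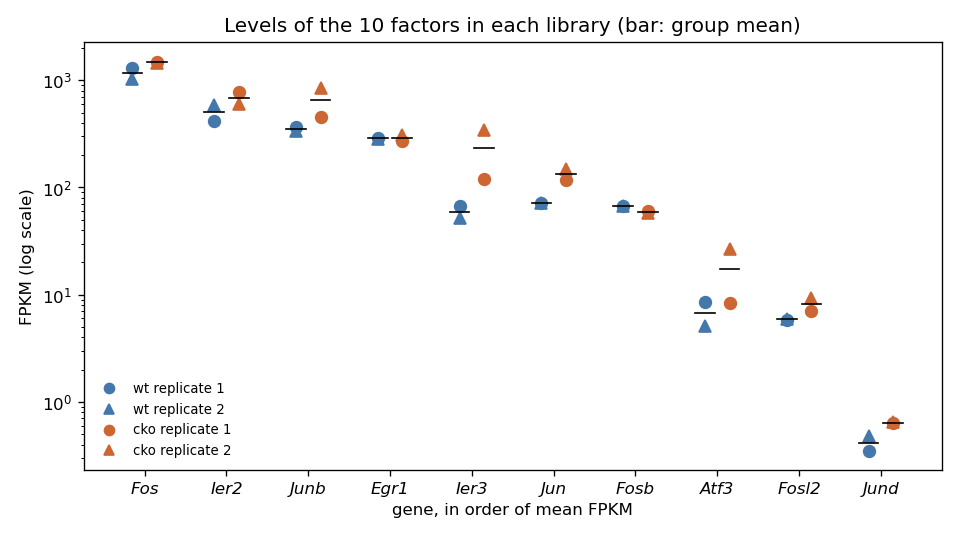
FPKM of the 10 factors on a log scale, one point per library (blue, wt; orange, cko; circle, replicate 1; triangle, replicate 2), with a bar at each group mean. Fos led in every library, the 2 groups of Egr1 overlapped, and Jund lay between 0.351 and 0.644 FPKM.

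By mean level the order was Fos, Ier2, Junb, Egr1, Ier3, Jun, Fosb, Atf3, Fosl2 and Jund. The mean of the 4 libraries ran from 1316 FPKM for Fos to 0.528 FPKM for Jund. Neighbours whose ranges over the 4 libraries overlapped were Ier2 and Junb, Egr1 and Ier3, Ier3 and Jun, and Atf3 and Fosl2. The ranges of the other neighbours were apart. Fos ranked between 26 and 33 among all genes of a library, and Junb, Ier2 and Egr1 ranked within the first 142.

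The sequences just before the transcription start were searched for exact matches to 5 known response elements. Promoters from RefSeq (GRCm38.p6) were matched for 8 of the 10 factors, all but Egr1 and Ier2. The 250 bases before the start were searched on both strands for the cyclic AMP response element TGACGTCA, the AP-1 site TGANTCA, the EGR site GCGNGGGCG, the CArG box bound by serum response factor, and the NF-kB site. The first 2 of these motifs cannot match the same bases. A full cyclic AMP response element was found in 0 of 8 factors and in 1.77% of 27025 genes, a full AP-1 site in 0 of 8 and in 7.82%, and a CArG box in 0 of 8 and in 1.62%. An EGR site was found in 2 of 8 (Fosb and Fosl2) and in 5.33% of genes. An NF-kB site was found in 4 of 8 (Fos, Fosb, Fosl2 and Ier3) and in 8.23% of genes. A match is a stretch of letters and not a bound site, and variants of these letters or elements further upstream were not searched. The promoters of Ier3, with the largest fold change, Jun, with the smallest unadjusted p, Fos, the most abundant factor, and Fosb, lower in both cko libraries, are printed 5′ to 3′ on the strand of the gene, with NF-kB and EGR matches in capitals. The Ier3 promoter is at chr17:35821463-35821712 (plus strand), that of Jun at chr4:95052223-95052472 (minus strand), that of Fos at chr12:85473640-85473889 (plus strand) and that of Fosb at chr7:19310046-19310295 (minus strand).
Ier3: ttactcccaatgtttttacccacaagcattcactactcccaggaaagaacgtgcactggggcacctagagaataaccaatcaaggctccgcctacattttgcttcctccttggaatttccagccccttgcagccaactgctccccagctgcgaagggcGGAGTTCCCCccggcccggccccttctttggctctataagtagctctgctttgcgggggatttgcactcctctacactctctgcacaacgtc
Jun: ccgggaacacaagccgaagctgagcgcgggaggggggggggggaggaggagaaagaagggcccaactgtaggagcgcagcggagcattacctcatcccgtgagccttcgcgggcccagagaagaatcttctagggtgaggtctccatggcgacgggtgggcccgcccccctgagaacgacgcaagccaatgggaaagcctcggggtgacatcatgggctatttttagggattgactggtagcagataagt
Fos: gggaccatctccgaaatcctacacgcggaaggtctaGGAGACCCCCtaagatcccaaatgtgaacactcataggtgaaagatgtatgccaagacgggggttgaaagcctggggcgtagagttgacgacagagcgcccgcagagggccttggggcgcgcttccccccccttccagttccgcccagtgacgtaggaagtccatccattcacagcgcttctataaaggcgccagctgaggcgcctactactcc
Fosb: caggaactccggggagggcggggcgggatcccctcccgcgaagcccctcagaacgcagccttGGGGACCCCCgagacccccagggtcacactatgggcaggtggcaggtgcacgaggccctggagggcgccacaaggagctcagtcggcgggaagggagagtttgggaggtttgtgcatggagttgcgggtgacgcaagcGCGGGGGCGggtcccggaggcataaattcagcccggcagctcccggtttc
The single capital stretch of Ier3 is an NF-kB match at bases -92 to -83 from the start, and that of Fos is one at -214 to -205. Both matches are on the strand opposite to the gene, so that the printed capitals are the reverse complement of the matched site. Fosb carries an NF-kB match at -188 to -179 and an EGR match at -50 to -42. The Jun window held none of the 5 motifs in full.

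The FOS proteins cannot pair with each other and bind DNA with a JUN partner. Fos encodes c-FOS, the founding member (chr12:85473890-85477273, plus strand, GRCm38). Its level was 1304 and 1028 FPKM in wt libraries and 1487 and 1447 FPKM in cko libraries. Both cko libraries were above both wt libraries, and the wt libraries differed more from each other (SD 195) than the cko libraries did (SD 27.9). The log2 fold change was 0.34 (SE 0.166, adjusted p = 0.369 in limma), and without wt replicate 2 it was 0.17.

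Fosb encodes FOSB, whose truncated form persists after a stimulus (chr7:19302696-19310051, minus strand). It was at 66.5 and 67.7 FPKM in wt and at 60.3 and 57.2 FPKM in cko libraries. It was the one factor whose cko libraries were both lower, and the log2 fold change was −0.19 (SE 0.133, adjusted p = 0.502 in limma). Fosl2 encodes FRA-2, which lacks the strong transactivation domain of c-FOS and is induced later than Fos (chr5:32135801-32157842, plus strand). It was at 5.85 and 5.98 FPKM in wt and at 7.04 and 9.26 FPKM in cko libraries. The groups did not overlap, and the log2 fold change was 0.39 (SE 0.190, adjusted p = 0.363 in limma).

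Fosl1, which encodes FRA-1 and completes the family, was at 9.05 and 13.6 FPKM in wt and at 20.4 and 19.0 FPKM in cko libraries. Both cko libraries were higher, with a log2 fold change of 0.78 (SE 0.218, adjusted p = 0.227 in limma). Fos made up 92.2% to 94.4% of the summed FOS family FPKM in every library. The share of Fosb was 4.8% and 6.07% in wt and 3.83% and 3.73% in cko libraries. The family was therefore made up mainly of Fos in both genotypes at the level of RNA.

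JUN proteins can pair with each other and with FOS or ATF proteins. Jun encodes c-JUN, which is phosphorylated by JNK (chr4:95049034-95052222, minus strand). Its level was 72.2 and 71.4 FPKM in wt libraries and 118 and 149 FPKM in cko libraries. The wt libraries were nearly equal and both cko libraries were well above them, the lower one by 0.71 on the log2 scale. The log2 fold change was 0.88 (SE 0.164, adjusted p = 0.199 in limma), and its unadjusted p of 0.0022 in limma was the smallest of the 9 factors. The estimate stayed between 0.71 and 1.05 whichever library was left out, with an unadjusted p under 0.05 each time. An antisense gene, Junos, overlaps 7.3% of the exonic bases of Jun, and reads of the 2 genes cannot be told apart there unless strand was used.

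Junb encodes JUNB, which is abundant in myeloid cells and restrains c-JUN in many settings (chr8:84974484-84978718, minus strand). It was at 368 and 337 FPKM in wt and at 456 and 853 FPKM in cko libraries. The groups did not overlap, and cko replicate 2 was far above the other 3 libraries. The log2 fold change was 0.82 (SE 0.301, adjusted p = 0.275 in limma) and 0.37 without cko replicate 2. Its unadjusted p was no longer under 0.05 without cko replicate 2, wt replicate 1 (0.89) or wt replicate 2 (0.76). The gene shares 7.5% of its exonic bases with Prdx2 on the opposite strand, which was at 97.6 and 82.5 FPKM in wt and at 63.7 and 64.8 FPKM in cko libraries, the other way round from Junb.

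Jund encodes JUND, the JUN protein present in most resting cells (chr8:70698949-70700616, plus strand, a single exon of 1668 bases in the gene model used). It was at 0.351 and 0.478 FPKM in wt and at 0.640 and 0.644 FPKM in cko libraries. These values rest on 13, 15, 20 and 19 reads, so that a difference was not detectable at this depth. The exact 95% binomial intervals were 0.312 to 1.001 and 0.446 to 1.31 RPM (reads scaled to the library total) in wt replicates 1 and 2, and 0.652 to 1.65 and 0.647 to 1.68 in cko replicates 1 and 2. The intervals overlap in all 4 libraries and cover counting error only. The antisense gene Gm11175 covers 52.6% of the bases of Jund, and the RefSeq start lies 1210 bases before the start in the tables.

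Junb made up 83.5% and 82.4% of the summed JUN family FPKM in wt and 79.4% and 85.0% in cko libraries, with nearly all of the rest from Jun. These shares and sums take Jund at the value of the gene model used, with the limits given above. Junb exceeded Jun by a factor of 5.10 and 4.71 in wt and of 3.87 and 5.71 in cko libraries. The cko libraries lay on either side of the wt libraries in this ratio. The summed FOS FPKM exceeded the summed JUN FPKM 3.15- and 2.73-fold in wt and 2.74- and 1.53-fold in cko libraries. The groups overlapped, and the log2 difference of −0.52 gave p = 0.667 in an exact two-sided permutation test, whose smallest possible p is 0.333 with 2 libraries a group.

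**Figure D2:**
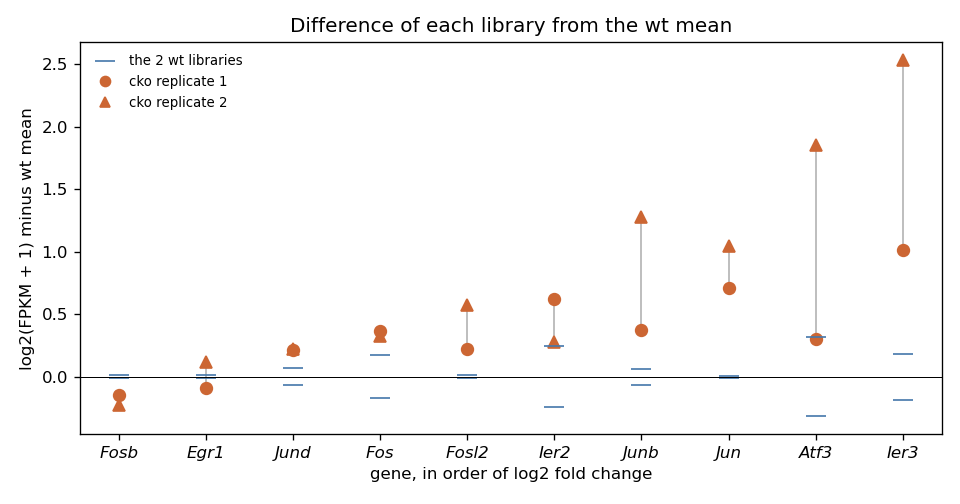
Difference of each library from the wt mean on the log2(FPKM + 1) scale for the 10 factors, in order of log2 fold change (blue dashes, the 2 wt libraries; orange circle, cko replicate 1; orange triangle, cko replicate 2). The cko libraries were close together for Fos and far apart for Junb, Atf3 and Ier3, where cko replicate 2 was the higher.

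Egr1 encodes a zinc finger factor induced through the ERK pathway that takes part in macrophage differentiation (chr18:34859823-34864984, plus strand). It was at 290 and 285 FPKM in wt and at 270 and 311 FPKM in cko libraries. The cko libraries enclosed the wt libraries, and the log2 fold change was 0.01 (SE 0.140, adjusted p = 0.974 in limma). Its sign was not stable, with −0.10 after median-of-ratios rescaling, −0.20 after quantile normalization, −0.09 without cko replicate 2 and 0.11 without cko replicate 1. Egr1 was 98.2% and 98.1% of the summed Egr1, Egr2 and Egr3 FPKM in wt and 96.8% and 92.4% in cko libraries.

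The remaining EGR genes were at much lower levels. Egr3, an EGR factor induced by antigen receptor signals in lymphocytes, was at 1.60 and 1.95 FPKM in wt and at 5.16 and 13.4 FPKM in cko libraries. Both cko libraries were higher, with a log2 fold change of 1.76 (SE 0.409, adjusted p = 0.212 in limma). Egr2, best known from myelinating Schwann cells and also expressed in macrophages, was at 3.70 and 3.71 FPKM in wt and at 3.72 and 12.1 FPKM in cko libraries. Only cko replicate 2 stood away from the rest, and the log2 fold change was 0.74 (SE 0.470, adjusted p = 0.460 in limma).

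Atf3 encodes a stress-induced ATF protein that limits cytokine genes in macrophages (chr1:191170296-191218039, minus strand). It was at 8.49 and 5.11 FPKM in wt and at 8.40 and 26.5 FPKM in cko libraries. The groups overlapped, since cko replicate 1 lay just under wt replicate 1 and only cko replicate 2 was high. The log2 fold change was 1.08 (SE 0.523, adjusted p = 0.367 in limma), and 0.30 without cko replicate 2.

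Ier2 encodes a small nuclear protein with a role in transcription (chr8:84661331-84662852, minus strand). It was at 421 and 594 FPKM in wt and at 771 and 604.5 FPKM in cko libraries. The groups did not overlap, but cko replicate 2 exceeded wt replicate 2 by little. The log2 fold change was 0.45 (SE 0.222, adjusted p = 0.372 in limma), with a range of 0.20 without wt replicate 1 to 0.69 without wt replicate 2.

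Ier3 encodes IEX-1, a short-lived protein that affects survival and ERK and NF-κB signalling (chr17:35821684-35822923, plus strand). It was at 66.6 and 51.4 FPKM in wt and at 119 and 343 FPKM in cko libraries. Both cko libraries were above both wt libraries, by 1.01 in replicate 1 and 2.53 in replicate 2 on the log2 scale from the wt mean. The log2 fold change of 1.77 (SE 0.485, adjusted p = 0.220 in limma) was the largest of the 9 tested factors. Without cko replicate 2 it was 1.01, with an unadjusted p of 0.00783 in limma, and without wt replicate 2 it was 1.59, with an unadjusted p of 0.0755 in limma. Relative to Fos, Ier3 stood at 0.0511 and 0.050 in wt and at 0.0802 and 0.237 in cko libraries, the highest value again in cko replicate 2.

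**Figure D3:**
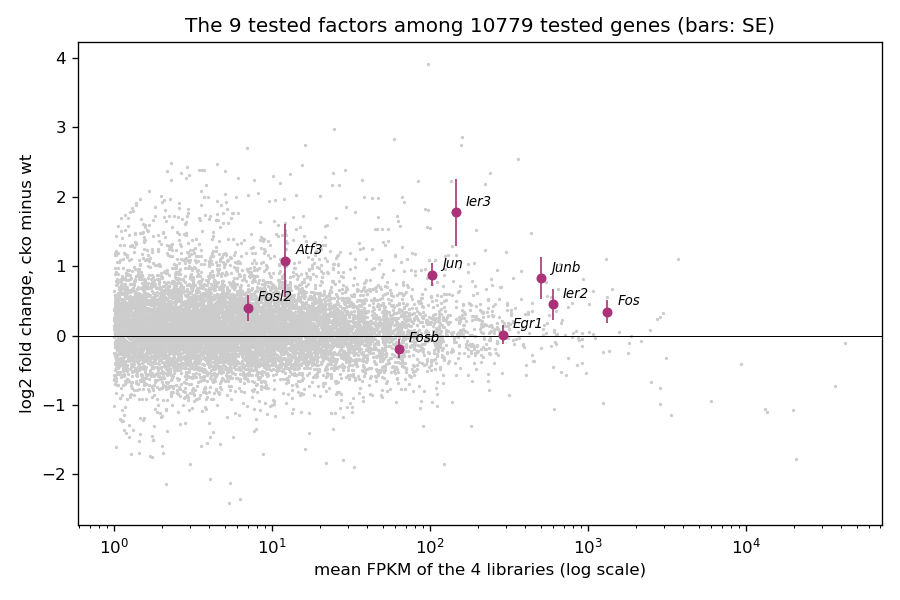
Log2 fold change, cko minus wt, against mean FPKM (log scale) for 10779 tested genes (grey), with the 9 tested factors in purple and bars of 1 SE. Ier3 at 1.77 lay highest among the factors and Fosb at −0.19 lowest, and other genes reached larger changes in both directions.

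The 2 cko libraries did not carry the difference equally. The median difference from the wt mean over the 10 factors was 0.33 in cko replicate 1 and 0.45 in cko replicate 2. The higher cko value was in replicate 2 for all factors but Fos, Fosb and Ier2. The share of all tested genes with this order was not taken, so that it is not read as particular to the factors. Jund, at 13 to 20 reads a library, is among the 10 factors. Without wt replicate 2, the library with Y-linked transcripts, the median log2 fold change of the tested factors was 0.69.

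The higher level in cko was also set against the scaling of the libraries. Median-of-ratios rescaling and quantile normalization moved the median log2 fold change of all tested genes from 0.09 to 0.00 and −0.02, and that of the factors from 0.45 to 0.34 and 0.29. Of all genes with an unadjusted p under 0.05, 69.8% were higher in cko in the deposited scale, against 51.0% and 48.2% after these scalings. Jun and Ier3 kept an unadjusted p under 0.05 in both, with log2 fold changes of 0.77 and 0.76 for Jun and of 1.67 and 1.65 for Ier3. Junb did not, at 0.72 and 0.65.

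For cell handling, the Fos, Jun and Egr genes were compared side by side. Fos was at 1028 FPKM or more and Egr1 at 270 FPKM or more in every library, whichever the genotype. Both cko libraries were above both wt libraries for Fos, Fosl1, Fosl2, Jun, Junb, Egr2 and Egr3 (33.6% of all tested genes). They were below them for Fosb (18.0% of all tested genes), whereas for Egr1 the groups overlapped. For Egr2, cko replicate 1 at 3.721 FPKM was barely above wt replicate 2 at 3.705 FPKM. Heat shock genes known to be induced by dissociation did not share one pattern. Of 15 listed, 11 were tested, and 2 had an unadjusted p under 0.05, both higher in cko (11.4% of all tested genes), namely the chaperone genes Hspa8 (0.56, adjusted p = 0.212) and Hsp90ab1 (0.59, adjusted p = 0.212; both limma). Hspa1a and Hspa1b, the inducible HSP70 genes, were at 0.648 FPKM or less in all 4 libraries, though reads of these near-identical copies may have been lost in counting. The median of the list was 0.23. Time and temperature of handling are not recorded per library, so that handling and genotype cannot be told apart.

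Among 14 other AP-1 and basic leucine zipper partners, 10 were tested. An unadjusted p under 0.05 was found for 3 higher in cko (11.4% of all tested genes) and 1 lower (4.95%). The higher ones included Fosl1 and Maff (0.78), a small MAF protein, and the lower one was Jdp2 (−0.49), a repressor that pairs with c-JUN, Maff and Jdp2 being named after their values were seen. The adjusted p values of Fosl1, Maff and Jdp2 were 0.227, 0.273 and 0.261 in limma. Maff reached the minimum mean of 1 FPKM only through its cko libraries, with group means of 0.727 FPKM in wt and 1.95 FPKM in cko. It is one of the 3 higher genes counted above, and its test is not used as support. The most abundant were Atf4, the integrated stress response factor, at 153 to 187 FPKM (0.15, adjusted p = 0.626 in limma), and Mafg, another small MAF protein, at 20.0 to 24.5 FPKM (0.04, adjusted p = 0.930 in limma). The median of the list was 0.20.

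Of 30 other immediate early genes, 24 were tested and 20 had a positive fold change, against 60.4% of all tested genes. At an unadjusted p under 0.05, 7 were higher (11.4% of all tested genes) and 0 lower (4.95%). Both cko libraries were above both wt libraries for 14 of the 24, against 33.6% of all tested genes. The median was 0.54, close to that of the 9 factors. Besides Egr3, Mcl1, an anti-apoptotic BCL2 family gene, combined a log2 fold change above 1 with an unadjusted p under 0.01, at 44.0 and 43.8 FPKM in wt and 75.4 and 120 FPKM in cko libraries (1.10, SE 0.238, adjusted p = 0.210 in limma). Zfp36, whose protein promotes decay of cytokine mRNA, was at 384 and 344 FPKM in wt and 426 and 596 FPKM in cko libraries (0.47, adjusted p = 0.319 in limma). Dusp1, a phosphatase that inactivates MAP kinases, was at 239 and 177 FPKM in wt and 236 and 468 FPKM in cko libraries (0.69, adjusted p = 0.374 in limma), and its groups overlapped. Without cko replicate 2 the median of the list was 0.17.

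All 27 kinases and factors upstream of AP-1 were tested, of which 7 were higher (11.4% of all tested genes) and 2 lower (4.95%) at an unadjusted p under 0.05, with a median of 0.27. The higher ones were Mapk8, Mapk14, Map2k3, Map3k5, Rps6ka3, Mapkapk2 and Srf, with log2 fold changes of 0.465 (Mapk14) to 0.97 (Mapkapk2). The lower ones were Map2k7 (−0.52) and Mkl1 (−0.79). Their adjusted p values in limma ran from 0.199 for Srf to 0.303 for Rps6ka3, and these genes are named after their values were seen. The most abundant of the 27 were Rps6ka1, the ribosomal S6 kinase RSK1, at −0.09 (adjusted p = 0.880 in limma), and Map2k1, the ERK kinase MEK1, at −0.08 (adjusted p = 0.813 in limma). Both had overlapping groups.

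Of 20 known AP-1 target genes, 16 were tested, with 6 higher (11.4% of all tested genes) and 1 lower (4.95%) at an unadjusted p under 0.05 and a median of 0.60. Those with a log2 fold change above 1 and an unadjusted p under 0.01 were Ccl2, Tnf, Hmox1 and Areg. Ptgs2 (1.97) and Cd14 (1.51) had larger fold changes than Tnf and Hmox1 but not such a p, and are named after their values were seen. Ccl2, a monocyte chemoattractant, was at 16.4 and 13.7 FPKM in wt and 36.2 and 106 FPKM in cko libraries (1.98, SE 0.483). Tnf, the inflammatory cytokine, was at 52.1 and 43.9 FPKM in wt and 89.8 and 133 FPKM in cko libraries (1.18, SE 0.225). Both were higher in each cko library, with adjusted p values of 0.214 and 0.199 in limma. Hmox1, heme oxygenase 1, was at 84.3 and 68.7 FPKM in wt and 135 and 257 FPKM in cko libraries (1.28, SE 0.317). Areg, the EGF receptor ligand amphiregulin, was at 0.482 and 0 FPKM in wt and 2.90 and 3.91 FPKM in cko libraries (1.85, SE 0.306). The adjusted p values of Hmox1 and Areg were 0.214 and 0.183 in limma. Areg reached the minimum mean of 1 FPKM only through its cko libraries, with group means of 0.241 FPKM in wt and 3.40 FPKM in cko. It is one of the 6 higher genes counted above, and its test is not used as support. Mmp8, the neutrophil collagenase and the most abundant of the list, was the one lower gene, at 1109 and 1180 FPKM in wt and 805 and 764 FPKM in cko libraries (−0.54, SE 0.134, adjusted p = 0.214 in limma). Plaur, the urokinase receptor, had overlapping groups (−0.09, adjusted p = 0.786 in limma). Without cko replicate 2 the median of the list was 0.11, and without cko replicate 1 it was 1.26.

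**Figure D4:**
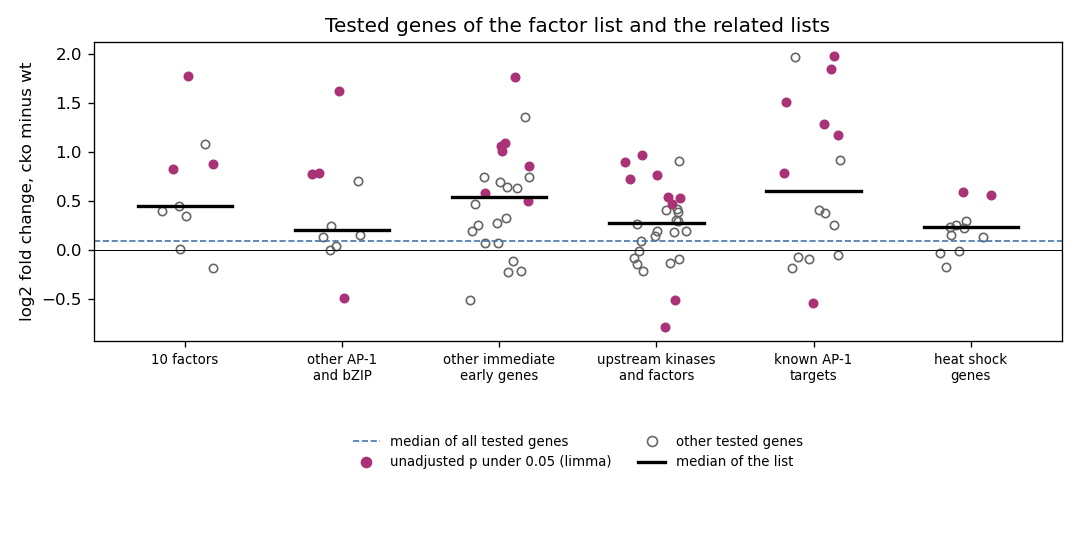
Log2 fold change, cko minus wt, of the tested genes of the factor list and 5 related lists, each point a gene (filled purple, unadjusted p under 0.05 in limma; open, other tested genes), with a black line at the list median and a dashed line at the median of all tested genes, 0.09. The list medians ran from 0.20 to 0.60.

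Marker genes of myeloid and of other cell types differed between the libraries as well. The 12 neutrophil markers summed to 160200 and 135800 FPKM in wt and to 109700 and 90910 FPKM in cko libraries, with 5 of 12 lower and 2 of 12 higher at an unadjusted p under 0.05, which for all tested genes was 4.95% lower and 11.4% higher. The 12 erythroid markers summed to 3765 and 2368 FPKM in wt and to 1449 and 1549 FPKM in cko libraries, with 6 of 12 lower. For 12 monocyte and macrophage markers, of which 11 were tested, the sums were 671 and 608 FPKM in wt and 602 and 844 FPKM in cko libraries, with 2 of 11 higher. The sum was highest in cko replicate 2, although Ly6c2, the most abundant of these markers, was lowest in that library. The 12 hepatocyte markers summed to 61.6 to 147 FPKM over the 4 libraries, with 2 of 8 tested lower, and the 12 endothelial and stromal markers to 32.1 to 39.4 FPKM, with 1 of 9 tested higher and 1 lower. The 12 myeloid identity genes, most of whose sum was Lyz2, summed to 32510 and 33670 FPKM in wt and to 12080 and 9452 FPKM in cko libraries. Of the 10 tested, 5 had a positive and 5 a negative log2 fold change, with a median of −0.03. At an unadjusted p under 0.05, 2 were higher and 1 was lower, namely Lyz2, which carries the Cre. Of the genes named above, Mmp8 is also on the neutrophil list. The 11 listed lymphoid markers summed to 68.2 and 77.1 FPKM in wt and to 55.2 and 55.6 FPKM in cko libraries, with 2 of 6 tested lower, and the T cell genes Cd3e and Trac were each at 0 in 3 of 4 libraries. In such bulk samples, fewer cells of a type and less RNA per cell cannot be told apart. The part of these markers in the differences of the 10 factors was not tested.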

How the data were processed

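RNA-seq of 2 wt and 2 cko libraries was analysed, grouped by the genotype in their labels. The authors deposited 1 table of FPKM values for each library, with 24706 genes. Per the labels, the processing notes name TopHat2 2.0.12, Bowtie2 2.2.3, HTSeq 0.6.0 and the build mm9, whereas 92.61% of the genes had exactly the position of GENCODE M21 (GRCm38), which was used for coordinates. Use of strand in counting is not given in the sources used here. FPKM values were whole multiples of 1 read within 0.02 read for at least 99.97% of single-exon values tested, which gave the library totals, and reads were recovered for 90.99% of genes (all 10 factors). Intervals are exact 95% binomial intervals of the reads of a gene among all reads of its library.

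For the 10779 genes averaging 1 FPKM or more, log2(FPKM + 1) was fitted by lmFit and eBayes (trend) of limma 3.58.1, R 4.3.3, with the genotype as the only term. The added 1 FPKM understates the change of low genes. The fit was tested on simulated data. FPKM were not rescaled. Values were averaged with Python 3.11.15 and pandas 2.3.3, and permutation tests used scipy 1.17.1. Genes named are the 10 factors, Fosl1, Egr2, Egr3, Pdcd1, Lyz2 and, in each related list, up to 5 whose |log2FC| exceeded 1 at an unadjusted p under 0.01 and the 2 with the highest mean. Some genes that this rule names are not reported here. Marker lists covered neutrophil, monocyte and macrophage, erythroid, hepatocyte, lymphoid, endothelial and stromal, and myeloid identity genes. The factors, lists and tests were chosen with earlier results of these data known. Alternatives covered pseudocounts of 0.1 and 0.01, no filter or a minimum mean of 5 FPKM, 2 scalings, no trend, a replicate block, omission of each library in turn, and voom on the recovered reads (minimum mean 10).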

Additional observations from a re-analysis of the deposited data

How the results depend on the processing

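Of 117 values of the 9 tested factors under 13 alternatives, 105 kept their side of an unadjusted p of 0.05, 8 lost it and 4 gained it. Egr1 changed sign in some, as given above. Junb lost it without a filter (0.82), after median-of-ratios rescaling (0.72) or quantile normalization (0.65) and without a trend (0.82), and Fos gained it with voom (0.34). With 1 library left out, values ranged from 0.17 to 0.51 for Fos, −0.23 to −0.15 for Fosb, 0.22 to 0.57 for Fosl2, 0.71 to 1.05 for Jun, 0.37 to 1.27 for Junb, −0.09 to 0.11 for Egr1, 0.30 to 1.85 for Atf3, 0.20 to 0.69 for Ier2 and 1.01 to 2.53 for Ier3. Here a group left with 1 library was assumed to vary like the other. The factors with an unadjusted p under 0.05 then numbered 2 to 5 (5 without cko replicate 1), and their median was 0.36 to 0.69. Factors with a log2 fold change above 1 and an unadjusted p under 0.01 numbered 1 with voom (main value 0), and 0 to 4 with a library left out (4 without cko replicate 1, 1 without cko replicate 2).

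For the other partners, 4 genes with an unadjusted p under 0.05 became 1 at a minimum mean of 5 FPKM, 2 with the replicate block and 2 with voom, and 1 to 2 with a library left out. Their median became 0.09 after median-of-ratios rescaling and 0.08 after quantile normalization, and that of the upstream genes 0.14 after quantile normalization. Left-out libraries gave 2 to 15 other immediate early genes (15 without cko replicate 1, 2 without wt replicate 1; median 0.17 to 0.76), 2 to 8 upstream genes (2 without wt replicate 1, 4 without cko replicate 2), 3 to 9 targets (3 without wt replicate 2; median 0.11 to 1.26) and 1 to 3 heat shock genes (1 without wt replicate 1; median 0.03 to 0.33, the lowest without cko replicate 2). The cause was not tested.

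Over all tested genes, an adjusted p under 0.05 was reached by 0 under every alternative but voom on recovered reads, which gave 2 of 12524, neither a factor. Log2 fold changes above 1 or under −1 with an unadjusted p under 0.01 numbered 247, against 126 at a minimum mean of 5 FPKM, and 131 without cko replicate 2 to 462 without cko replicate 1. Replicate numbers are shared by the groups, but no label ties same-numbered libraries, and the replicate 1 minus 2 differences of the groups correlated at −0.16 across genes. With the replicate block, 1247 genes had an unadjusted p under 0.05, against 1768 without it, and 3 factors did in either fit. The depth limits Jund, at 13 to 20 reads a library.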

Other observations

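Jund shared its low level and base composition with 2 other single-exon genes of basic leucine zipper factors that myeloid cells are known to express. GC content was 67.1% in the exons of Jund, higher than in 99.8% of protein-coding genes, 62.6% in Cebpa and 67.2% in Cebpb. Cebpa was at 0.425 to 1.09 FPKM and Cebpb at 0.479 to 1.43 FPKM over the 4 libraries. Junb, with a GC content of 62.6%, and Ier2, with 60.9% and also a single exon, were among the most abundant factors. Over protein-coding genes, the share with a mean under 1 FPKM was 42.4% below a GC content of 45%, 57.7% between 60% and 65%, and 67.9% at 65% or more. These genes and this comparison were chosen after their values were seen, and the part of base composition in the level of Jund was not tested.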
